A study of Mus musculus with 12 samples.

Results

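The genes for mitochondrial ribosomal proteins, 74 of the 24421 symbols in the count table, were followed across 4 genotypes of mouse blood progenitors. Members were the symbols made of Mrpl or Mrps and a number, 48 Mrpl and 26 Mrps genes. The rule used names and no measured value, but this gene family was chosen with earlier results of these data known. The cells were GFP-positive LSK cells of bone marrow, a sort for progenitors that lack lineage markers and carry Kit and Sca-1 (encoded by Ly6a), from secondary transplant recipients. The 4 groups, each of 3 libraries, differed in the engrafted donor cells. The wildtype group is titled Empty. The miR146aKO group lacked miR-146a and is titled Mir-146 KO/Empty. The Runx1mut group carried the frameshift allele Runx1S291fsX300, and the miR146aKO_Runx1mut group carried that allele on cells without miR-146a. All groups share the transplantation and the GFP sort. The labels do not say what Empty holds, how the mutant Runx1 was introduced, or the age of the mice. Nor do they state whether each library is from its own mouse. A p-value here thus reflects how much libraries of the same genotype vary, which may be partly technical. In the main fit this spread was estimated over all 4 groups together, not from the compared groups alone.

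The mitochondrial ribosome is a separate ribosome inside the mitochondrion that makes the few proteins of the respiratory chain encoded by mitochondrial DNA. Its ribosomal RNAs come from that DNA, while all of its proteins are encoded in the nucleus, made in the cytosol and imported. The large subunit (mostly Mrpl names) forms the peptide bond and releases the chain through an exit tunnel at the inner membrane. The small subunit (mostly Mrps names) binds the messenger RNA and reads its codons. Resting blood stem cells are known for low mitochondrial activity, and differentiating and dividing progenitors for more. The mitochondrial genes themselves were not analysed here. Mrps30, despite its name, is a protein of the large subunit, and Mrps36 is also known as a component of the 2-oxoglutarate dehydrogenase complex.

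Library depth and composition bear on all values below. Total counts ran from 3540043 to 7026393 per library, the 74 members together from 9008 to 26236, and 3.91% to 17.8% of counts fell on Rn45s, a gene of ribosomal RNA. The miR146aKO libraries A047, A150 and A151 had the fewest counts: 3540043, 4353971 and 3959581, with 11342, 9008 and 9497 on members. All libraries of the other groups had at least 4387524, with at least 14650 on members. Depth thus went with genotype for miR146aKO, and its part in the results was not tested. From 12050 to 15336 genes had a count. Library A031, labelled miR146aKO_Runx1mut, had 14 counts of Mir146, although its label says that miR-146a is lacking, and the other libraries, wildtype included, had 0. Library A042 (Runx1mut) had the highest Kit level, 711 CPM. The sort markers themselves differed between groups: Ly6a was 505 to 1019 CPM in miR146aKO and 12.1 to 121 CPM in miR146aKO_Runx1mut, and Kit was 24.6 to 59.7 and 164 to 219 CPM in these groups. The mean CPM of 4 Y-linked genes (Ddx3y, Eif2s3y, Kdm5d and Uty) lay between 24.8 and 60.4 in miR146aKO and between 0.137 and 7.99 for wildtype, while Runx1mut (6.54 to 42.4) and miR146aKO_Runx1mut (3.45 to 53.5) spread widely. It thus went with genotype between wildtype and miR146aKO, and a fit with it as a covariate is given where it turns or moves a result. The medians of each comparison that rest on A031 or A042 are given with and without them.

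Gene positions are those of GRCm38. All 74 members passed the low-count filter, and all had at least 1 count in each library except Mrpl47, which had 0 counts in library A150 (a count of 0 allows up to 3 counts, or 0.724 CPM). Levels are given in CPM, counts scaled to the TMM-adjusted library size. Their mean log2 CPM (with a prior count of 2) gives each gene the same weight. On this scale the members stood at 4.77, 4.91 and 5.01 in the wildtype libraries A015, A040 and A053. They stood at 4.89, 4.53 and 4.53 in the miR146aKO libraries A047, A150 and A151, and at 5.38, 4.75 and 5.31 in the Runx1mut libraries A021, A042 and A058. The miR146aKO_Runx1mut libraries A001, A031 and A051 stood at 5.50, 5.05 and 5.08. Each miR146aKO_Runx1mut library was thus above each wildtype and each miR146aKO library, while Runx1mut spread over most of the range. Over single genes, the group mean of log2 CPM was highest in miR146aKO_Runx1mut for 35 of the 74 members and lowest in miR146aKO for 44. By library, A001 held the highest value of 17 members and A051 of 13, and A047 held both the highest value of 12 members and the lowest of 16. The spread between libraries of a group was 0.25 (pooled SD), so the distance between A031 and the highest wildtype library is small against it.

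**Figure D1:**
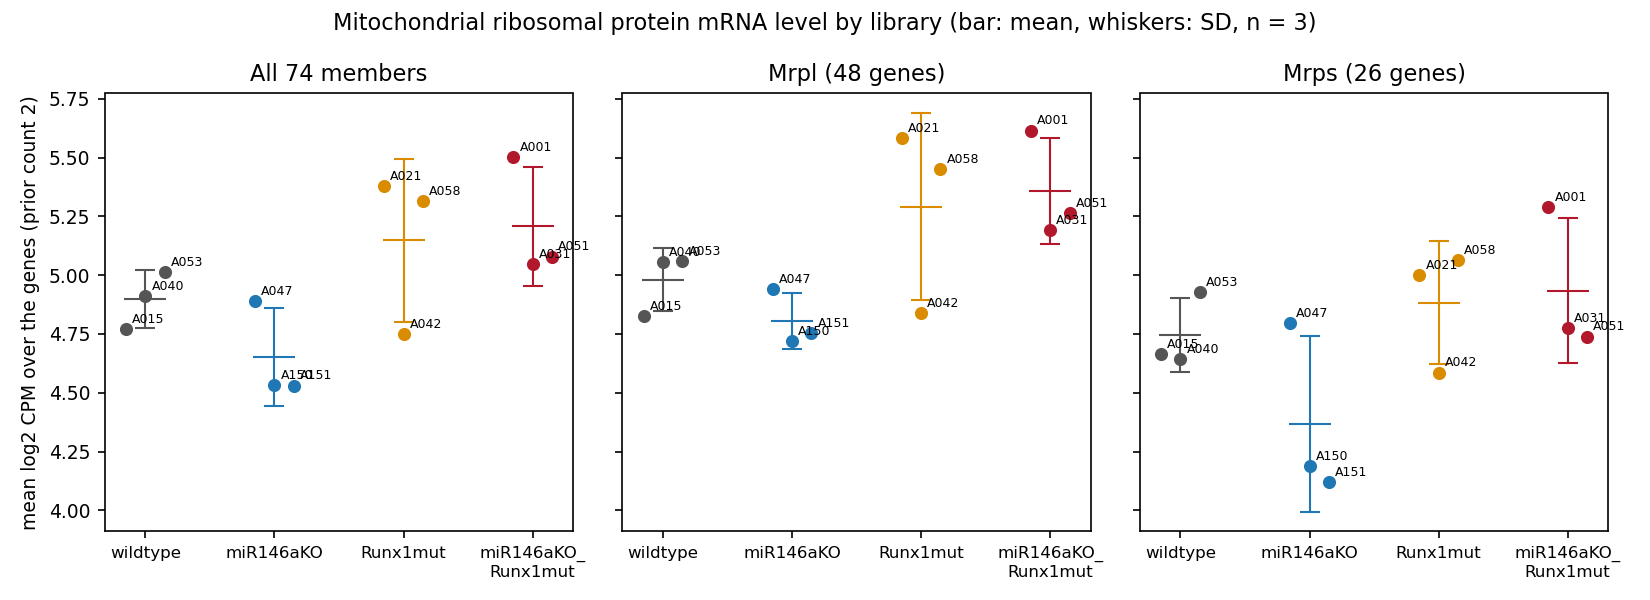
Mean log2 CPM of all 74 members, of the 48 Mrpl genes and of the 26 Mrps genes (y axis) in each library (points, by group on the x axis), with the group mean and SD. The miR146aKO_Runx1mut points for all members, 5.05 to 5.50, lie above the wildtype points, 4.77 to 5.01, and the miR146aKO points, 4.53 to 4.89.

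Summed CPM of the members lay between 2322 and 3349 for wildtype and between 2180 and 3585 for miR146aKO. For Runx1mut they lay between 2307 and 3723, for the double genotype between 2968 and 4234, and on this scale every pair of groups overlapped. The double genotype was thus apart from wildtype and miR146aKO on the level with equal weight per gene and not on the sum. The other pairs compared overlapped on both. The mean log2 CPM of all 12744 tested genes ran from 4.40 in A015 to 3.90 in A001, the library with the fewest genes detected (12050). Its group means were 4.15 in wildtype, 4.24 in miR146aKO, 4.20 in Runx1mut and 4.08 in the double genotype, with overlapping ranges. Those of members were 4.90, 4.65, 5.15 and 5.21. Relative to wildtype the 2 levels thus moved opposite ways in miR146aKO and the double genotype, and the same way in Runx1mut. The part of library composition in the member level was not tested. In sorted populations fewer cells of a type and less RNA per cell cannot be told apart.

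The names follow the subunits in most cases, with Mrps30, a large-subunit protein, counted here by its name. Mrps genes averaged 4.64 to 4.93 in wildtype and 4.74 to 5.29 in miR146aKO_Runx1mut, which overlap. They were at 4.19 and 4.12 in A150 and A151 but at 4.80 in A047, so the low Mrps level of miR146aKO was that of 2 of its 3 libraries. Mrpl genes averaged 4.83 to 5.06 in wildtype, 4.72 to 4.94 in miR146aKO and 5.19 to 5.61 in miR146aKO_Runx1mut, and the last group lay above the first 2.

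Single members did not follow the average closely. Across the 12 libraries the correlation of a member with the mean of the other members had a median of 0.31, and 69 members had a value above 0. These values are descriptions over libraries that share depth and scaling. Most like the average were Mrpl50 (r = 0.86), Mrpl21 (r = 0.86), Mrpl19 (r = 0.84) and Mrpl12 (r = 0.83). Mrpl49 ran most against it (r = -0.36), followed by Mrpl1 (r = -0.18) and Mrpl43 (r = -0.17). The median coefficient of variation of members within a group was 45.4% in wildtype, 52.2% in miR146aKO, 33.3% in Runx1mut and 43.6% in miR146aKO_Runx1mut. Genes in the same range of levels had 46.7%, 48.5%, 35.4% and 50.8%, so members varied between libraries about as much as other genes of their level.

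**Figure D2:**
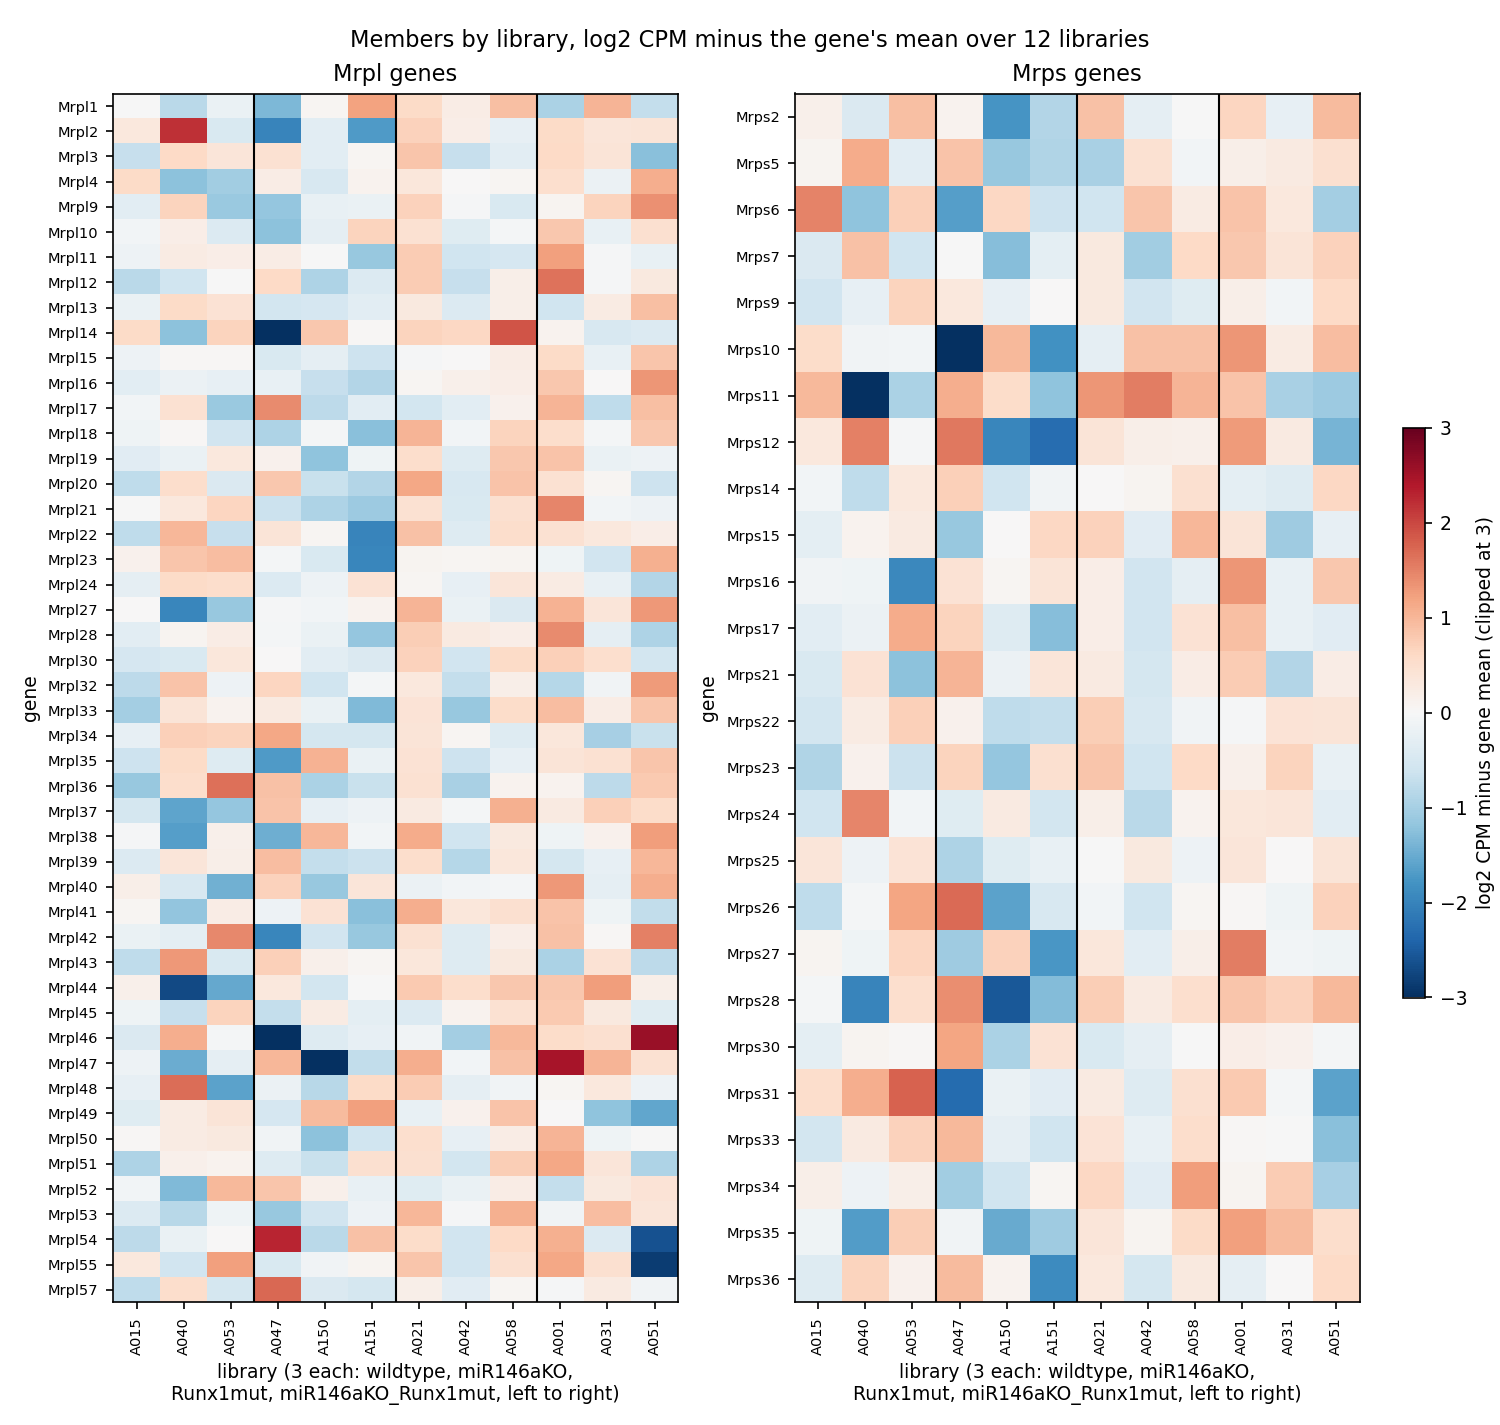
Each member (y axis, Mrpl left and Mrps right) in each library (x axis), as log2 CPM minus the gene's mean over the 12 libraries, red above and blue below it. Single dark cells, such as Mrpl46 in A047 and A051 or Mrps11 in A040, stand beside columns that are mostly pale blue (A150, A151) or pale red (A001, A021).

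Levels between genes can be compared only per length. As TPM, a length-scaled level over the summed exon length of each gene, the median member stood at 61.5 TPM in wildtype and the median tested gene at 24.5, with 63 of the 74 members at or above the latter. The highest members were Mrpl36 (407 TPM, SD 328, n = 3), Mrpl34 (397, SD 121), Mrpl52 (367, SD 262), Mrps21 (280, SD 150.98) and Mrpl2 (190.2, SD 177). The mean of Mrpl2 rested on A040 (392 TPM), and over the longest transcript it ranked 7. The lowest were Mrpl47 (4.07 TPM, SD 1.97), Mrps10 (8.497, SD 2.72), Mrps11 (11.4, SD 13.8), Mrpl1 (11.96, SD 3.67) and Mrpl37 (11.97, SD 5.08). Although the products work in one particle, the wildtype means of the highest and lowest member differed 99.8-fold. Without A053, where Mrpl36 was at 762 TPM, Mrpl34 was highest and its mean was 98.3-fold that of Mrpl47. Of the 4419 exon bases of Mrpl47, 1068 are shared with Actl6a and Ndufb5 on the other strand. The libraries do not keep strand, so the level of Mrpl47 and both ratios are uncertain. The SDs of Mrpl36, Mrpl52, Mrps21 and Mrpl2 are large enough that their order among themselves is not resolved.

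Promoters were examined because the nuclear genes for mitochondrial proteins are known targets of the factors NRF1, GABPA (of the ETS family) and YY1. RefSeq windows of GRCm38.p6, from 250 bases before to 50 after the gene start, were given for 65 of the 74 members, for 9727 tested genes and for 27025 genes in all. Motifs were searched on both strands as exact letters, and a match is a description, not a binding site. The ETS letters CCGGAAG were in 32.3% of member windows, 18.3% of those of tested genes and 9.12% of all. The YY1 letters AAGATGGC were in 16.9%, 4.77% and 2.88%, and the core NRF1 motif, which reads the same on both strands, in 4.62%, 2.10% and 0.977%. The E-box CACGTG, read by MYC and related factors, was in 6.15%, 10.3% and 7.24%, and CCAAT in 40% (26 of 65), 38.6% and 37.9%. At least 1 of ETS, YY1 and NRF1 was in 32 of 65 member windows (49.2%), against 23.7% of tested and 12.3% of all genes. ETS and YY1 letters shared bases in 0 member windows.

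On the strand of the gene, the YY1 letters stood in one place, while on the other strand they were spread over the bases before the start. In 7 member windows (10.8%) they lay on the strand of the gene between 10 and 40 bases after the start, which held for 1.89% of tested and 0.796% of all genes. These letters include ATG, the start codon of translation, and each of the 7 stretches shows them with up to 10 bases on either side, in capitals. They are shown because the shared placement can be read directly, and they were chosen after the positions were seen.
Mrpl42: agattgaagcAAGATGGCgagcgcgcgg
Mrps24: gcgccggcccAAGATGGCgtggtc
Mrps7: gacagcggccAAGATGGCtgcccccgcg
Mrps27: ggtgcgctccAAGATGGCggctcccatg
Mrpl49: ttgaggcgccAAGATGGCagcagcggtg
Mrpl37: tgcacgggcaAAGATGGCggcgtccagg
Mrpl35: ggcaggctgcAAGATGGCggcttccatc
In GRCm38.p6 they lie at chr10:95501905-95501932 (minus strand), chr11:5707652-5707675 (minus), chr11:115604148-115604175 (plus), chr13:99344790-99344817 (plus), chr19:6057722-6057749 (minus), chr4:107066823-107066850 (minus) and chr6:71823744-71823771 (minus), inside the first 50 bases from each RefSeq start. In the GENCODE annotation some of these genes begin further upstream, such as Mrps24 (at 5715680) and Mrpl35 (at 71826969). Mrpl42, Mrps27, Mrpl49 and Mrpl37 return below for their levels.

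The ETS letters also gathered at the start. They began within 60 bases of it in 27.7% of member windows, against 12.3% of tested and 5.87% of all genes. Mrpl3, a core protein of the large subunit, Mrps12, a protein of the decoding centre, and Mrps22, a small-subunit protein with no bacterial counterpart, are shown from 70 bases before to 29 after the start, with ETS letters in capitals.
Mrpl3: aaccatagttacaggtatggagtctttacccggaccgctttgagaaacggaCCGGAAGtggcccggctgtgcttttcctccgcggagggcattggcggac
Mrps12: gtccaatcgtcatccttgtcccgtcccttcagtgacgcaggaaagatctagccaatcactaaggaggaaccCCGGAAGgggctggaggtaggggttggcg
Mrps22: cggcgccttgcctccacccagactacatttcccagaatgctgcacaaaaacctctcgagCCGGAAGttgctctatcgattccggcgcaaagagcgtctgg
These lie at chr9:105053198-105053297 (plus strand), chr7:28741792-28741891 (minus) and chr9:98601650-98601749 (minus) of GRCm38.p6. In all 3 the capitals stand on the gene's own strand close to the start. Among all member windows the ETS letters stood on both strands. They were on the other strand in Mrps23, Mrps27 and Mrpl21, for example, so these 3 stretches do not show a shared strand.

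**Figure D3:**
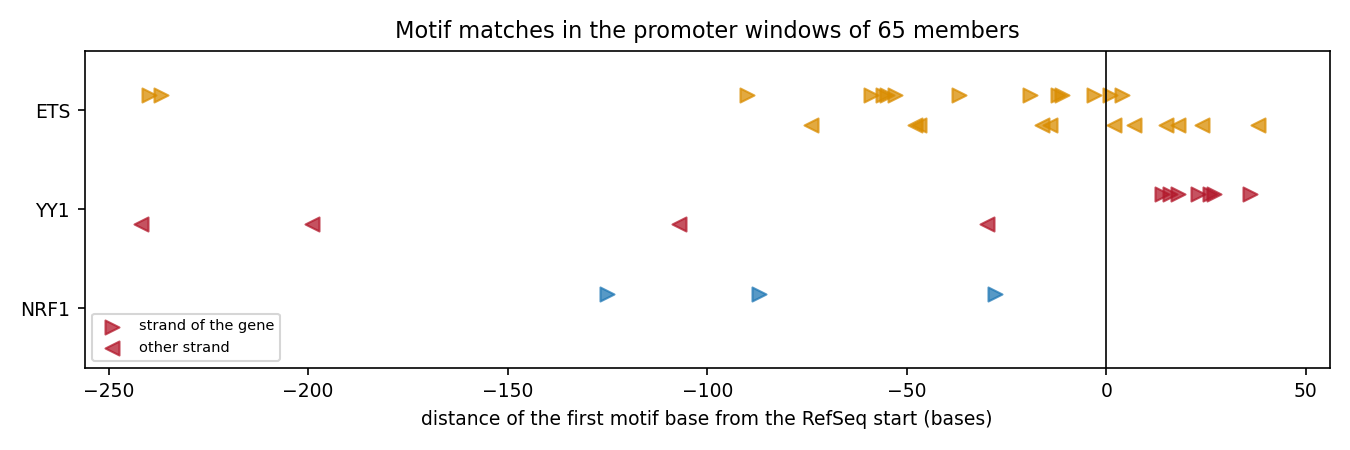
Exact matches of the NRF1, YY1 and ETS letters (y axis) in the 65 member windows, by distance in bases of the first base of the match from the RefSeq start (x axis, 0 is the first base of the gene). Triangles point right for the strand of the gene and left for the other strand. YY1 matches on the gene's strand all lie after the start.

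Some members lie head to head with another gene. Of the 74 members, 17 (23.0%) had a protein-coding neighbour on the other strand starting within 1000 bases upstream, against 11.2% of 11720 tested protein-coding genes. Both genes were tested for 16 of these pairs. They include Mrps12 with Sars2, the mitochondrial seryl-tRNA synthetase (172 bases apart), Mrpl36 with Ndufs6, a subunit of respiratory complex I (29 bases), and Mrpl32 with Psma2, a proteasome subunit (75 bases). Over the 12 libraries Mrpl32 and Psma2 moved together (r = 0.77), Mrps12 and Sars2 less so (r = 0.32) and Mrpl36 and Ndufs6 slightly apart (r = -0.21). Over the 6 comparisons, which share libraries, between 5 and 9 of the 16 pairs had fold changes of one sign (31.25% to 56.25%), and between 51.3% and 58.01% of 1143 tested pairs did. The member share lay below that of all tested pairs in 4 comparisons, level with it in Runx1mut against wildtype and above it in the double genotype against wildtype, with differences of few pairs and no test.

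The RefSeq starts of Mrpl46 and Mrps11 lie 42 bases apart on opposite strands, and their windows share 141 bases. The stretch from 61 bases before to 19 after the start of Mrpl46, on its strand (chr7:78783070-78783150, minus strand, GRCm38.p6), covers both starts, holds none of the ETS, YY1 and NRF1 letters, and is shown because it serves 2 members. It was chosen after their values were seen.
Mrpl46: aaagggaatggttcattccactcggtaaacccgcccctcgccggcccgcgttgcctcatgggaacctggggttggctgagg
Mrpl46, a protein of the central protuberance of the large subunit, had 12.6, 37.3 and 16.5 CPM in wildtype, 1.26, 13.1 and 14.4 in miR146aKO, 15.9, 8.25 and 34.4 in Runx1mut and 25.5, 23.99 and 106 in miR146aKO_Runx1mut. Mrps11, a protein of the platform of the small subunit, had 13.4, 0.444 and 3.27 CPM in wildtype, 14.5, 9.92 and 2.68 in miR146aKO, 17.3, 20.1 and 13.9 in Runx1mut and 12.2, 3.198 and 2.91 in miR146aKO_Runx1mut. The library with the highest Mrpl46 level, A051 of miR146aKO_Runx1mut, had one of the lowest Mrps11 levels, while A047 of miR146aKO had the lowest Mrpl46 level and the highest Mrps11 level of its group. In the GENCODE annotation Mrpl46 (78775236 to 78783531) and Mrps11 (78783119 to 78792989) overlap, and the pair is not among the 16 counted above. Their GENCODE exons share 173 bases, and the libraries do not keep strand, so reads of these bases cannot be told apart.

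The comparison of miR146aKO_Runx1mut with miR146aKO asks what the Runx1 mutation does in cells without miR-146a. Here the members leaned upward: 58 of 74 had a higher level in the double genotype, with a median log2 fold change of 0.51, while 49.6% of all tested genes were higher, with a median of -0.01. No single member passed the test. edgeR's quasi-likelihood test with Benjamini-Hochberg adjustment over all tested genes called 0 members at an adjusted p under 0.05, and 0.0157% of all genes. At an unadjusted p under 0.05 there were 8 higher members, where the background is 7.60%, and 1 lower member, where it is 7.17%. The groups did not overlap for 13 members, all higher in the double genotype, against a background of 9.45% higher and 9.81% lower. The standard error of a member's log2 fold change had a median of 0.62, and a shift of the median member is smaller than that. Without A031 and A042 the median member was 0.67 above the median of all genes (0.52 with them), and without A001 it was 0.30 above it.

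By role, the upward lean was found in most parts of the particle. Higher were 7 of 7 members at the catalytic core of the large subunit (median 0.76), 4 of 4 of the stalk, where translation factors dock (0.81), 7 of 8 at the exit tunnel (0.54) and 6 of 7 of the central protuberance (0.50). In the small subunit 10 of 11 members of the body (0.47) and 6 of 8 of the head (0.52) were higher, but 2 of 5 of the platform (-0.20). Of members mutated in human mitochondrial disease, 13 of 16 were higher (0.63). These counts describe lists chosen with results of these data known, and 0 of the members in them were called.

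The members that stood out most were few and noisy. Mrpl42 (chromosome 10, 95480805 to 95501940, minus strand), a mitochondria-specific protein of the large subunit, had 53.2, 49.5 and 165 CPM in wildtype, 15.5, 40.7 and 27.5 in miR146aKO, 83.2, 46.5 and 69.3 in Runx1mut and 112, 62.5 and 174 in miR146aKO_Runx1mut. All 3 double-genotype libraries lay above all 3 miR146aKO libraries. The log2 fold change by edgeR was 2.06 (SE 0.59), with an adjusted p of 0.154, the smallest of any member. DESeq2 called it (log2 fold change 1.98, adjusted p = 0.0281, where DESeq2 called 5.12% of all genes), as did edgeR without the count filter (2.07, adjusted p = 0.0267, where 2.86% were called), and limma-voom called 0 members, with 0.0942% of all genes called. Its promoter is one of the 7 with YY1 letters after the start.

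Mrpl46 had the largest difference, with a log2 fold change of 2.43 (SE 0.94) and an adjusted p of 0.252 by edgeR. It rested on the low A047 and the high A051, while the other 4 libraries ran from 13.1 to 25.5 CPM. Mrps35 (chromosome 6, 147042764 to 147073991, plus strand), a protein of the small-subunit head, had 31.7, 10.7 and 57.7 CPM in wildtype, 31.9, 11.9 and 16.3 in miR146aKO, 44.8, 36.8 and 51.8 in Runx1mut and 82.2, 67.2 and 49.9 in miR146aKO_Runx1mut. Here the double-genotype libraries were the higher ones (1.73 (SE 0.62), adjusted p = 0.22 by edgeR), with A040 of wildtype as low as miR146aKO. Mrpl2 (chromosome 17, 46646229 to 46650139, plus strand), which sits near the peptidyl transferase centre, had 30.6, 113 and 17.9 CPM in wildtype, 6.01, 19.6 and 7.302 in miR146aKO, 39.9, 28.5 and 20.9 in Runx1mut and 36.7, 31.8 and 32.2 in miR146aKO_Runx1mut. Its double-genotype libraries were nearly alike and above miR146aKO (1.61 (SE 0.72), adjusted p = 0.32 by edgeR).

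Lower in the double genotype were few members. Mrpl49 (chromosome 19, 6053622 to 6057785, minus strand), a mitochondria-specific large-subunit protein, had 28.7, 43.97 and 48.6 CPM in wildtype, 25.9, 72.1 and 87.4 in miR146aKO, 31.6, 40.5 and 67.2 in Runx1mut and 37.04, 15.8 and 12.4 in miR146aKO_Runx1mut. A150 and A151 were high and A031 and A051 low, with A047 and A001 overlapping (-1.51 (SE 0.60), adjusted p = 0.267 by edgeR). Mrpl54, a protein of the large subunit, had 17.4, 26.4 and 30.2 CPM in wildtype, 148, 17.2 and 55.5 in miR146aKO, 44.6, 20.2 and 45.9 in Runx1mut and 63.1, 22.6 and 4.61 in miR146aKO_Runx1mut. A047 was far above the rest and A051 far below (-1.29 (SE 0.85), adjusted p = 0.504). Mrpl43 had a log2 fold change of -0.63 (SE 0.59) and Mrpl57 of -0.60 (SE 0.60), and the latter turned to 0.54 without A047. Mrpl49 carries the same YY1 letters after its start as Mrpl42, whose difference had the other sign.

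**Figure D4:**
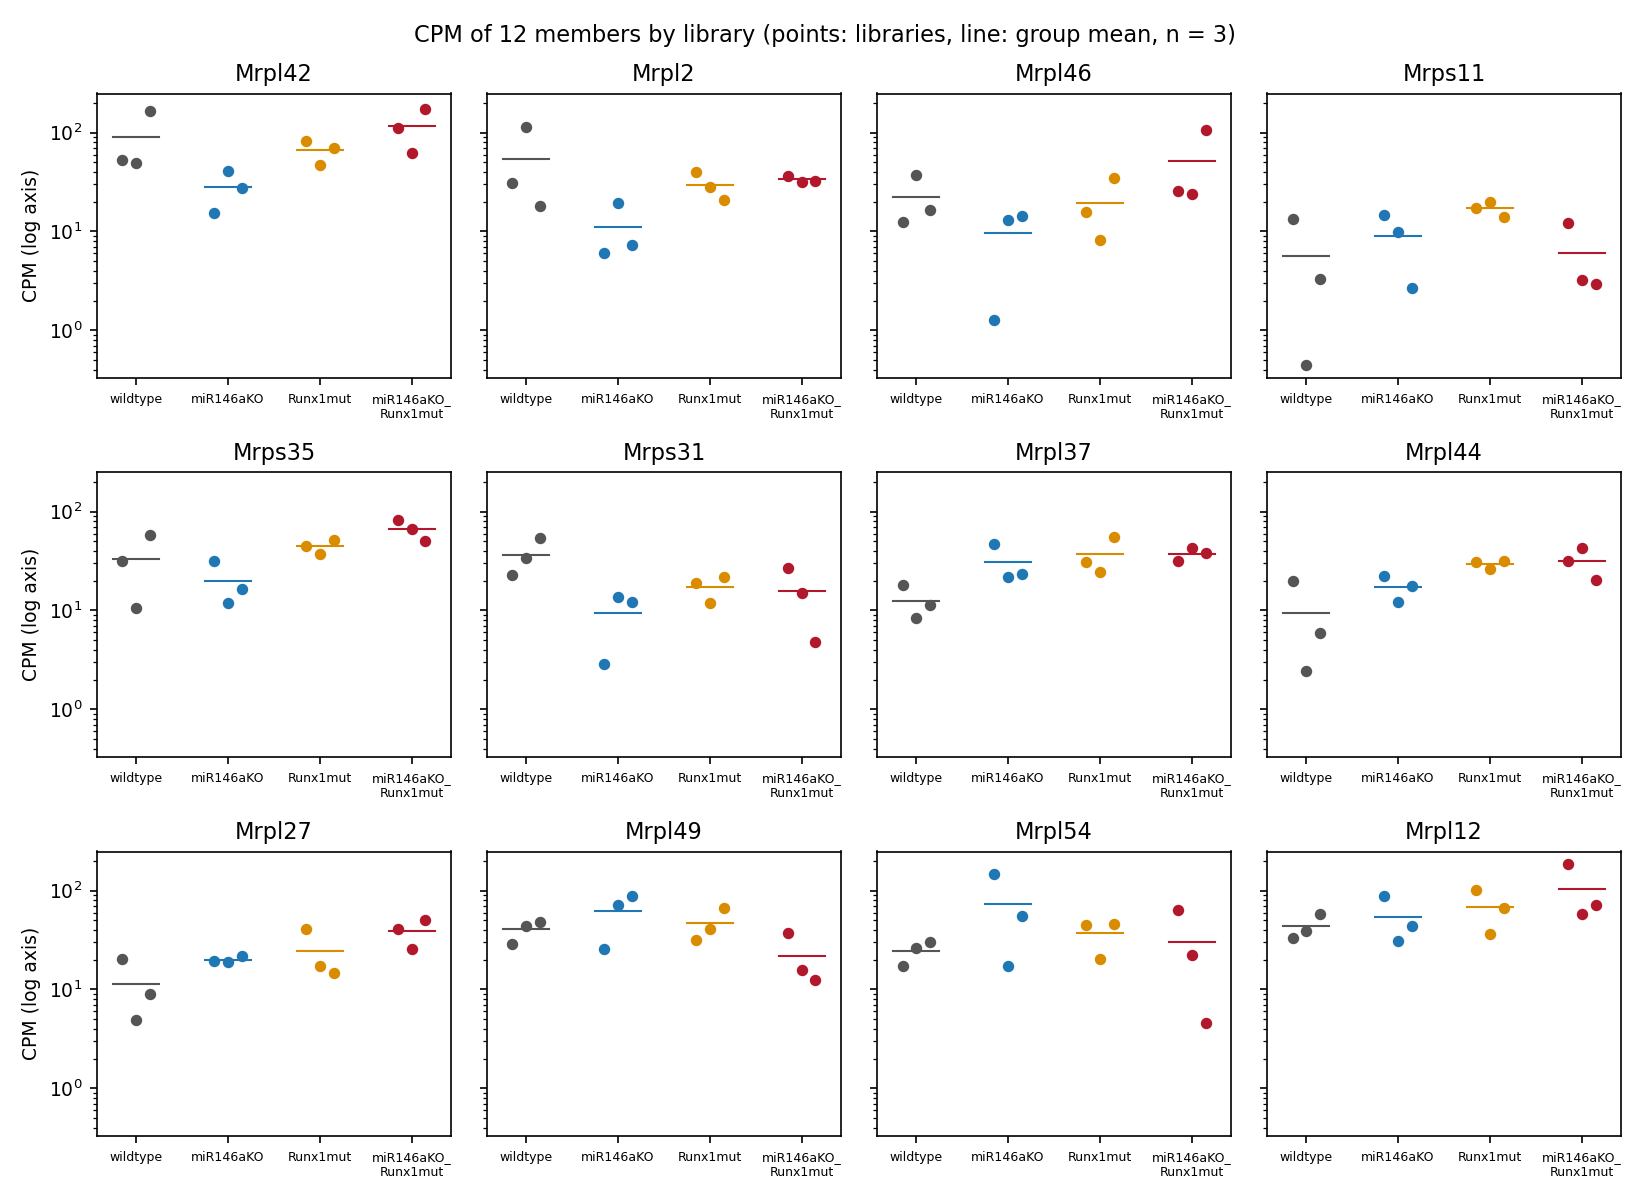
CPM on a log axis (y) of 12 members in each library (points, by group on the x axis) with the group mean (line). Mrpl42, Mrpl2, Mrpl46 and Mrps35 are higher in all 3 miR146aKO_Runx1mut libraries than in all 3 miR146aKO libraries, and Mrpl37 is lower in wildtype (8.44 to 17.9 CPM) than in any other library.

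Loss of miR-146a alone, miR146aKO against wildtype, gave fewer higher than lower members, a direction that did not hold under every setting. Of the 74 members 28 were higher, and the median log2 fold change was -0.16, against -0.003 for all tested genes. edgeR called 0 members, where it called 0.18% of all genes, and 1 member was higher (background 8.81%) and 4 were lower (7.09%) at an unadjusted p under 0.05. Groups did not overlap for 2 higher and 8 lower members (background 10.7% and 10.3%). Mrps genes had a median of -0.50 and Mrpl genes of -0.12. Of the small-subunit head 7 of 8 members were lower (median -0.54), and of its body 8 of 11 (-0.55). A047 differed from A150 and A151, and without A047 the median member was 0.35 below the median of all genes (0.16 below with it). Without A015, the lowest wildtype library, it was 0.42 below, and without A151 0.06 below. With RLE scaling 33 members were higher. With the covariate for Y-linked transcripts the downward lean was gone, with 37 of 74 members higher, an even split. The median member was then 0.08 above the median of all genes, which was itself at -0.07. The wildtype libraries were all lower in these transcripts than the miR146aKO libraries, and their part in the result was not tested beyond that fit.

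The 4 lowest members were Mrpl2, with a log2 fold change of -2.29 (SE 0.74), Mrps31 with -1.94 (SE 0.81), Mrpl42 with -1.68 (SE 0.58) and Mrpl23 with -1.31 (SE 0.65). Mrpl2 overlapped between the groups, since A053 and A150 were close, and its wildtype mean rested on A040 (113 CPM). DESeq2 called it (-2.24, adjusted p = 0.0363, where DESeq2 called 6.99% of all genes), edgeR did not (adjusted p = 0.158). Mrps31 (chromosome 8, 22411361 to 22429665, plus strand), a protein of the small-subunit head, had 22.7, 33.8 and 53.7 CPM in wildtype, 2.84, 13.6 and 12.2 in miR146aKO, 18.9, 11.8 and 21.7 in Runx1mut and 27.05, 14.9 and 4.85 in miR146aKO_Runx1mut. Each wildtype library was above each miR146aKO and each Runx1mut library (adjusted p = 0.265 for miR146aKO by edgeR). Mrpl23, at the exit tunnel, had 26.7, 43.97 and 46.7 CPM in wildtype, 23.4, 17.9 and 6.09 in miR146aKO, 26.1, 25.6 and 25.8 in Runx1mut and 22.6, 16.3 and 51.9 in miR146aKO_Runx1mut. Each of its wildtype libraries was above those of miR146aKO, A151 being lowest (adjusted p = 0.346 by edgeR).

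Higher in miR146aKO were Mrpl54 (1.58 (SE 0.86)), which rested on A047, Mrpl37 (1.28 (SE 0.58)), Mrpl44 (0.88 (SE 0.74)) and Mrps16 (0.82 (SE 0.62)). Mrpl37 (chromosome 4, 107055874 to 107066868, minus strand), a mitochondria-specific large-subunit protein, had 17.9, 8.44 and 11.4 CPM in wildtype, 46.8, 21.8 and 23.1 in miR146aKO, 31.1, 24.6 and 54.9 in Runx1mut and 31.4, 42.6 and 37.8 in miR146aKO_Runx1mut. The 9 libraries outside wildtype ran from 21.8 to 54.9 CPM, above all 3 wildtype libraries. The adjusted p by edgeR was 0.305 for miR146aKO, 0.786 for Runx1mut and 0.475 for the double genotype, 3 comparisons that share the wildtype libraries.

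The Runx1 mutation alone, Runx1mut against wildtype, showed a median near 0. Of 74 members 40 were higher, with a median log2 fold change of 0.07, against 50.3% of all tested genes and a median of 0.01. edgeR called 0 members and 0% of all genes, with 2 higher (background 2.64%) and 0 lower (2.88%) members at an unadjusted p under 0.05. Groups did not overlap for 8 higher and 2 lower members (background 5.72% and 6.41%). The result turned on single libraries. Relative to the median of all genes the median member was at 0.31 without A042 (0.06 with it), -0.11 without A015 and -0.01 without A021. With the covariate for Y-linked transcripts it was 0.41. Mrpl44 (chromosome 1, 79776018 to 79781445, plus strand), an exit-tunnel protein with an RNase III fold, had 19.8, 2.44 and 5.98 CPM in wildtype, 22.4, 12.1 and 17.8 in miR146aKO, 31.1, 26.2 and 31.7 in Runx1mut and 31.5, 43.00 and 20.4 in miR146aKO_Runx1mut. Its Runx1mut libraries all lay above wildtype (1.65 (SE 0.75), adjusted p = 0.889 by edgeR), and 2 of the 3 wildtype libraries were low. Mrpl37 was second (1.55 (SE 0.58)), then Mrpl53 of the stalk (1.20 (SE 0.66)) and Mrpl27 (1.10 (SE 0.68)). Lowest were Mrps31 (-1.07 (SE 0.79)), Mrpl2 (-0.85 (SE 0.70)), Mrpl36 (-0.78 (SE 0.69)) and Mrps24 (-0.66 (SE 0.61)). Of these, Mrpl2 and Mrps24 turned positive without A040 (0.27 and 0.18) and Mrpl36 without A053 (0.05).

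In miR146aKO_Runx1mut against wildtype, 51 of 74 members were higher, with a median log2 fold change of 0.25, against 51.3% of all tested genes and a median of 0.03. edgeR called 0 members and 0% of all genes. At an unadjusted p under 0.05, 5 members were higher (background 4.99%) and 0 lower (4.43%), and the groups did not overlap for 7 higher and 0 lower members (6.32% and 7.17%). Mrpl27 (chromosome 11, 94653767 to 94660089, plus strand), whose end reaches towards the peptidyl transferase centre, had 20.1, 4.89 and 8.97 CPM in wildtype, 19.6, 18.9 and 21.7 in miR146aKO, 40.9, 17.4 and 14.7 in Runx1mut and 41.3, 25.8 and 50.2 in miR146aKO_Runx1mut. The double-genotype libraries were all above wildtype (1.78 (SE 0.69), adjusted p = 0.475 by edgeR). Mrpl44 (1.74 (SE 0.75)), Mrpl37 (1.56 (SE 0.58)) and Mrpl40 (1.31 (SE 0.72)) followed. Lowest were Mrps31 (-1.23 (SE 0.79)), Mrpl49 (-0.89 (SE 0.60)), Mrpl34 (-0.77 (SE 0.59)) and Mrpl2 (-0.68 (SE 0.70)). Relative to all genes the median member stood 0.22 higher, 0.07 without A015, 0.47 without A031 and 0.46 without A031 and A042. With the covariate for Y-linked transcripts it was 0.54. Mrpl2 turned to 0.40 without A040.

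Loss of miR-146a on top of the Runx1 mutation, miR146aKO_Runx1mut against Runx1mut, gave 50 of 74 higher members and a median of 0.18, against 50.4% and 0.01 for all tested genes. edgeR called 0 members and 0% of all genes, and at an unadjusted p under 0.05 there were 0 members in either direction (background 2.88% higher, 1.75% lower). Groups did not overlap for 0 higher and 2 lower members (3.85% and 5.42%). Mrpl46 (1.41 (SE 0.90)) and Mrpl40 (0.97 (SE 0.71)) were highest and Mrpl14 (-1.43 (SE 0.90)) and Mrpl49 (-1.09 (SE 0.60)) lowest. Mrpl40, of the central protuberance, had 20.4, 12.9 and 6.41 CPM in wildtype, 29.4, 7.98 and 23.1 in miR146aKO, 15.9, 16.9 and 17.3 in Runx1mut and 44.8, 14.9 and 38.6 in miR146aKO_Runx1mut, with A031 just below the Runx1mut range. Mrpl14, which forms part of the contact between subunits, had 22.6, 6.22 and 24.3 CPM in wildtype, 1.26, 26.9 and 15.6 in miR146aKO, 24.4, 23.5 and 56.6 in Runx1mut and 16.4, 10.8 and 11.4 in miR146aKO_Runx1mut, and A058 was highest. The median relative to all genes was 0.17, and it was -0.04 without A042, 0.35 without A031, 0.20 without both and 0.07 without A001.

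**Figure D5:**
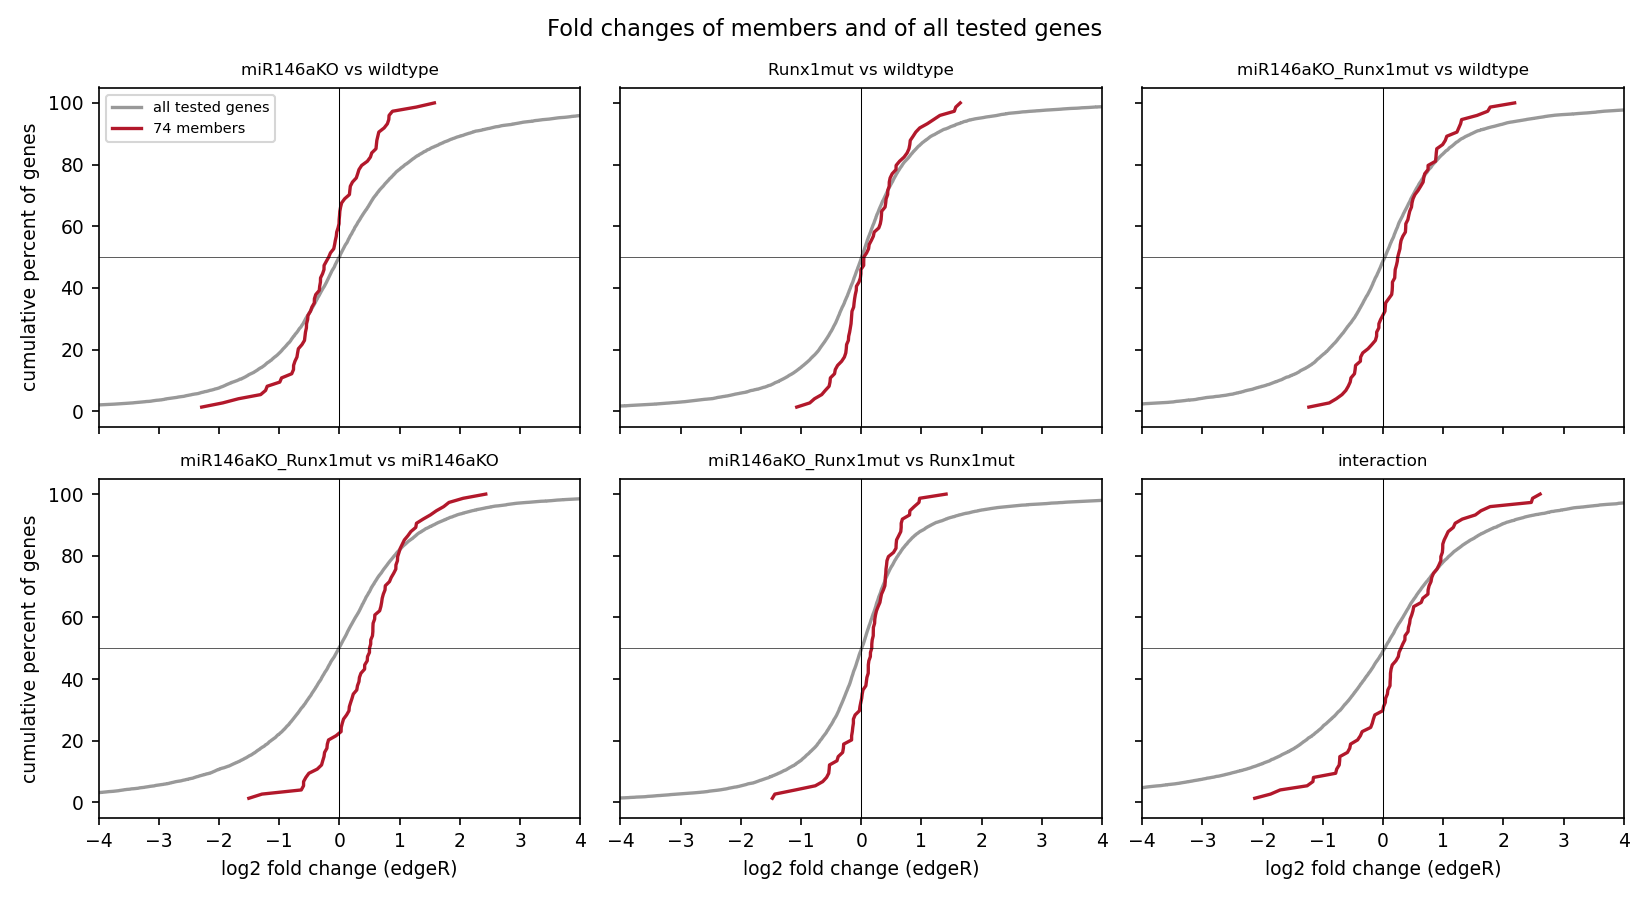
Cumulative percent of genes (y axis) by edgeR log2 fold change (x axis) for the 74 members (red) and all 12744 tested genes (grey) in the 6 comparisons. The red curve lies furthest right of the grey one, by 0.52 at the medians, in miR146aKO_Runx1mut against miR146aKO.

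Whether the Runx1 effect differed with miR-146a was tested by the interaction, the effect without miR-146a minus the effect with it. Of 74 members 52 were positive and the median was 0.31, against 50.9% and 0.03 for all tested genes. edgeR called 0 members and 0.0235% of all genes, and 2 members were positive (background 4.43%) and 0 negative (5.04%) at an unadjusted p under 0.05. These 2 were Mrpl42 (2.49 (SE 0.81), adjusted p = 0.368) and Mrpl2 (2.46 (SE 1.01), adjusted p = 0.465), and Mrpl46 (2.61 (SE 1.28)) and Mrps31 (1.78 (SE 1.11)) were next. Mrpl54 (-1.87 (SE 1.19)), Mrpl49 (-1.71 (SE 0.84)), Mrpl37 (-1.26 (SE 0.81)) and Mrpl1 (-1.16 (SE 1.14)) were lowest. The median standard error was 0.87, and with a covariate for Y-linked transcripts the median member relative to all genes turned from 0.29 to -0.11. It was 0.06 without A042, 0.65 without A031, 0.33 without both and 0.09 without A150. limma-voom called 0 members in all 6 comparisons, where it called 0.596% of all genes in miR146aKO against wildtype, 0.0942% in the double genotype against miR146aKO and 0% in the other 4. edgeR without the count filter called 0 in miR146aKO against wildtype (4.14% of all genes), in Runx1mut against wildtype (0.843%), in the double genotype against wildtype (1.33%) and against Runx1mut (0.75%), and in the interaction (1.4%). DESeq2 called 0 members in Runx1mut against wildtype (0.966% of all genes), the double genotype against wildtype (1.55%) and against Runx1mut (0.619%), and the interaction (1.39%).

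The Runx1 effect can be set side by side in the 2 backgrounds because these comparisons share no library. It had one sign in both for 36 of 74 members (48.6%), 30 higher in both and 6 lower in both, against 53.5% of all tested genes. Across members the fold changes had r = -0.01, with genes that are not independent replicates. For the miR-146a effect with and without the Runx1 mutation the signs were equal for 34 of 74 (45.9%), against 52.3%. Neither share was tested against that of all genes.

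Members chosen for their known roles did not pass the test in any comparison. Mrpl12, a stalk protein that is also known to bind the mitochondrial RNA polymerase, had 33.5, 38.9 and 58.4 CPM in wildtype, 88.8, 30.7 and 44.3 in miR146aKO, 101, 36.3 and 66.6 in Runx1mut and 184, 57.4 and 71.8 in miR146aKO_Runx1mut. A001 and A021 were highest, and its largest difference was that of the double genotype against wildtype (1.26 (SE 0.58), adjusted p = 0.522 by edgeR). Mrpl10, at the stalk base, had 24.2, 29.5 and 19.2 CPM in wildtype, 10.7, 21.3 and 40.9 in miR146aKO, 35.3, 19.8 and 24.8 in Runx1mut and 45.5, 22.03 and 35.6 in miR146aKO_Runx1mut. Mrpl11, its neighbour there, had 46.2, 60.6 and 58.8 CPM in wildtype, 60.1, 50.3 and 22.9 in miR146aKO, 87.3, 33.6 and 35.9 in Runx1mut and 121, 49.7 and 43.4 in miR146aKO_Runx1mut, with A001 highest and A151 lowest. All groups overlapped for both. Mrpl3 had 37.5, 93.3 and 78.3 CPM in wildtype, 83.8, 48.6 and 63.3 in miR146aKO, 108, 37.7 and 49.1 in Runx1mut and 93.4, 80.3 and 25.5 in miR146aKO_Runx1mut, and all of its 5 pairwise log2 fold changes lay between -0.10 (SE 0.57) and 0.03 (SE 0.57). These standard errors leave room for a difference in either direction. Mrpl45, which ties the tunnel exit to the inner membrane, had 23.4, 15.8 and 40.4 CPM in wildtype, 15.5, 30.5 and 20.7 in miR146aKO, 19.2, 27.6 and 35.2 in Runx1mut and 44.3, 31.4 and 19.9 in miR146aKO_Runx1mut, again overlapping.

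Among the Mrps genes, Mrps12 had 28.3, 65.7 and 22.4 CPM in wildtype, 68.9, 5.57 and 4.38 in miR146aKO, 29.9, 25.9 and 25.3 in Runx1mut and 55.99, 27.5 and 8.49 in miR146aKO_Runx1mut. A150 and A151 were at the bottom with A051, and A047 at the top, so the spread inside miR146aKO exceeded any difference between groups. Mrps22 had 14.4, 25.3 and 35.2 CPM in wildtype, 23.4, 12.3 and 12.9 in miR146aKO, 35.6, 15.2 and 19.8 in Runx1mut and 20.7, 28.4 and 28.1 in miR146aKO_Runx1mut, and Mrps27, a protein of the pentatricopeptide repeat family, had 24.4, 21.1 and 36.3 CPM in wildtype, 10.7, 37.3 and 6.57 in miR146aKO, 29.1, 18.4 and 25.8 in Runx1mut and 67.5, 21.7 and 20.9 in miR146aKO_Runx1mut. Groups overlapped for both. Mrps34 had 17.4, 13.8 and 17.2 CPM in wildtype, 7.27, 9.92 and 15.8 in miR146aKO, 23.6, 11.95 and 36.8 in Runx1mut and 16.2, 25.9 and 7.52 in miR146aKO_Runx1mut, but its exons share bases with Nme3 on its own strand and Mapk8ip3 on the other, so its counts are uncertain. Mrps30, of the large subunit, had 18.9, 24.4 and 23.5 CPM in wildtype, 52.5, 11.9 and 31.2 in miR146aKO, 16.6, 18.9 and 22.9 in Runx1mut and 26.4, 25.4 and 22.1 in miR146aKO_Runx1mut, the narrowest spread of these outside miR146aKO. Mrps36 had 11.1, 23.1 and 15.9 CPM in wildtype, 28.4, 15.7 and 3.65 in miR146aKO, 18.2, 9.96 and 17.8 in Runx1mut and 11.9, 14.6 and 22.3 in miR146aKO_Runx1mut, with no order of the groups. In all, 30 of the 74 members share exon bases with another annotated gene, and 3, Mrps36 and Mrpl23 among them, have pseudogene-named copies. The shared bases were 1605 of 2064 in Mrps34, 695 of 790 in Mrpl53 and 4590 of 6576 in Mrps25. The counts of Mrpl53 and Mrps25 are thus uncertain too.

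Lists of other genes of mitochondrial translation stood closer to an even split in the double genotype against miR146aKO. Of 22 tested assembly factors 10 were higher (median -0.06), of 14 translation factors 7 (-0.03), of 17 mitochondrial tRNA synthetases 11 (0.15) and of 7 genes of mitochondrial transcription 2 (-0.81). None was called by edgeR, and the extremes were Noa1, a GTPase of ribosome assembly (1.96, SE 0.60), and Mettl15, a small-subunit RNA methyltransferase (-4.25, SE 1.76). A list meant for mitochondrial ribosome proteins under other names had 7 of 11 higher (0.35). It also held the member Mrpl57 (-0.60, SE 0.60) and Oxa1l, which is not a ribosomal protein. This list is thus not separate from the members. The nuclear genes of oxidative phosphorylation, which make the complexes that mitochondrial translation completes, had 41 of 44 higher (0.45), and their mean log2 CPM was 6.92 to 7.28 in the double genotype and 6.40 to 6.75 in miR146aKO, without overlap. Of regulators of mitochondrial biogenesis 7 of 11 were higher (0.39), with Myc highest (1.23, SE 0.53, adjusted p = 0.301 by edgeR) and Ppargc1a lowest (-4.79, SE 2.06, adjusted p = 0.300).

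Cell division genes and markers of other cells differed between the same groups. Of 18 proliferation genes 17 were higher in the double genotype than in miR146aKO (median 1.42), with mean log2 CPM of 6.63 to 7.70 against 5.82 to 6.08. All 11 B-lineage markers were lower (median -5.34), their summed CPM being 5400 to 10968 in miR146aKO and 61.5 to 409 in the double genotype with no marker at 0 in all libraries of either group. Summed T and NK cell markers were 106 to 1678 CPM in miR146aKO and 57.7 to 666 in the double genotype, where Cd3g and Cd8a were at 0, and Cd2 was called lower by edgeR (adjusted p = 0.00756). Summed neutrophil markers were 3793 to 12112 and 13348 to 59806 CPM, mast cell and basophil markers 22.7 to 70.2 and 106 to 814, and monocyte and macrophage markers 823 to 10225 and 1093 to 6664 CPM. On mean log2 CPM the neutrophil markers overlapped, at 6.10 to 8.34 in miR146aKO and 8.26 to 10.22 in the double genotype. The T and NK cell markers did not overlap on that scale, at 1.20 to 6.32 and -0.01 to 0.54. Megakaryocyte markers were at 54.998 to 97.4 and 8.10 to 1860.4 CPM and erythroid markers at 35.7 to 427 and 50.3 to 1009, with the 4 haemoglobin genes at 0 throughout. Why these 4 genes had no count was not tested, and the treatment of reads mapping to several places is not given. The part of cell division or of other cells in the member levels was not tested.

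Against wildtype other markers stood apart. B-lineage markers summed to 28.2 to 503 CPM in wildtype and 5400 to 10968 in miR146aKO, without overlap, beside the 28 of 74 members that were higher there. Megakaryocyte markers (265 to 1578 CPM in wildtype) and mast cell and basophil markers (252 to 473) were lower in each miR146aKO library, at 55.0 to 97.4 and 22.7 to 70.2 CPM. The part of these cells in the member levels was not tested. Of the 18 proliferation genes 0 were higher in miR146aKO (median -1.19) and 11 in the double genotype (0.06), and A015, the wildtype library with the lowest member level, also had the lowest proliferation level of its group (6.06 against 7.42 and 7.74). Stem cell genes summed to 1868 to 4087 CPM in wildtype, 736 to 1644 in miR146aKO and 301 to 1718 in the double genotype. Summed monocyte and macrophage markers, 304 to 636 CPM in wildtype, did not overlap with either group without miR-146a. On mean log2 CPM, wildtype (2.15 to 5.24) overlapped miR146aKO (4.61 to 9.48) but not the double genotype (5.84 to 8.66). Of 44 oxidative phosphorylation genes 36 were higher in the double genotype than in wildtype (median 0.35) and 17 in miR146aKO (-0.11), beside 51 and 28 of the 74 mitochondrial ribosomal protein genes.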

How the data were processed

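RNA was sequenced from 12 libraries of sorted bone marrow progenitors, 3 per genotype. The authors deposited raw read counts per gene symbol, with 1 column per library. Per the labels' protocols, RNA was amplified with the NuGEN Ovation v2 system and libraries were made with Nextera XT, which keep no strand. The tools were HISAT2 2.0.4 and featureCounts 1.5.2 on build mm10, with FastQC 0.11.2, per the submitters' processing notes; the treatment of reads mapping to several places is not given in the sources used here. Columns were assigned to genotypes by the deposited sample sheet.

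The test was edgeR 4.0.16 (R 4.3.3), quasi-likelihood, with TMM scaling, the default filter by group (12744 genes kept) and 1 fit over all libraries, adjusted by Benjamini-Hochberg over all tested genes and called under 0.05. The common biological coefficient of variation was 0.809. DESeq2 1.42.0 and limma-voom 3.58.1 were alternatives, as were RLE scaling, no filter, a stricter filter (10 CPM in 3 libraries), leaving out Rn45s, a Y-linked covariate, the compared groups alone and each library left out. Leaving out A031 and A042 together was added after seeing the data. Lengths, overlaps and neighbours came from GENCODE M21 (GRCm38), which held all 74 members and 23376 of 24421 symbols, and promoter windows from RefSeq. Named members were the 4 highest and 4 lowest per comparison with a mean log2 CPM of at least 3, the 5 highest and 5 lowest per length, 12 members chosen for their roles, and the extremes of other lists. Others, such as Mrps11, were chosen after their values were seen. The members and all lists were chosen with earlier results of these data known, so list counts carry no test.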

Additional observations from a re-analysis of the deposited data

How the results depend on the processing

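No paired analysis was possible because the columns of the count table carry no replicate number. The values below are, unless said otherwise, the median member log2 fold change minus that of all tested genes. The number of members called was 0 in all comparisons and settings except 1 by DESeq2 in miR146aKO against wildtype (Mrpl2, -2.24), and 1 by DESeq2 (Mrpl42, 1.98) and 1 without the count filter (Mrpl42, 2.07) in miR146aKO_Runx1mut against miR146aKO. Leaving out each library in turn kept it at 0 in every comparison. The median then ran from -0.42 to -0.058 in miR146aKO against wildtype, from -0.11 to 0.31 in Runx1mut against wildtype, from 0.07 to 0.47 in the double genotype against wildtype, from 0.30 to 0.70 against miR146aKO, from -0.04 to 0.35 against Runx1mut, and from 0.055 to 0.65 for the interaction. With the Y-linked covariate it was 0.41 in Runx1mut against wildtype, 0.54 in the double genotype against wildtype, 0.08 in miR146aKO against wildtype and -0.11 for the interaction. The last 2 changed sign (from -0.16 and 0.29), and the cause was not tested. Signs of single members were followed only for the 4 highest and 4 lowest named in each comparison. Of these, log2 fold changes of 4 members changed sign when one library was left out. More of the 74 members changed sign. Without A042 the number of higher members went from 40 to 53 in Runx1mut against wildtype, and from 50 to 39 in the double genotype against Runx1mut. In Runx1mut against wildtype Mrpl2 ran from -1.26 to 0.27 (without A040), Mrps24 from -1.01 to 0.18 (without A040) and Mrpl36 from -1.23 to 0.053 (without A053). In the double genotype Mrpl2 ran from -1.13 to 0.40 (without A040) against wildtype, and Mrpl57 from -0.95 to 0.54 (without A047) against miR146aKO. RLE scaling gave 54 higher members of 74 in the double genotype against miR146aKO, in place of 58, and 33 in miR146aKO against wildtype, in place of 28. Over the longest transcript Mrps10 was at 12.5 TPM and Mrpl30 and Mrpl24 ranked above Mrpl2. The other 181 values of the main results and 761 of the named members kept their direction and side of the threshold, or moved by less than the spread between libraries. With 3 libraries per group and a median standard error of 0.62, a shift of the size of the median member is not detectable for single genes at this depth and spread.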

Other observations

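Among the mitochondrial tRNA synthetases, Lars2 (leucyl-tRNA synthetase) held a median of 94.1% of the summed CPM of the 17 genes in the list. Its level ran from 3424 CPM in A053 to 12552 CPM in A051. It went with the share of counts in the ribosomal RNA gene Rn45s, which was lowest in A053 (3.91%) and highest in A051 (17.8%). Over the 12 libraries the share of counts in Lars2 and that in Rn45s had Pearson's r = 0.93 and Spearman's rho = 0.92. Without A051 and A042, the libraries farthest from the median Rn45s share, r was 0.90. The relation was noticed in the data before it was computed, so it is a description with no test. Whether reads of ribosomal RNA are counted on Lars2 was not tested, and its CPM may not measure its messenger RNA alone. Lars2 is no member of the mitochondrial ribosome.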
